A study of Mus musculus with 12 samples.

Results

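Of the 719071 exon region and exon junction rows in the deposited mouse array table, 120210 (16.7%) had no gene symbol in the platform annotation used here, and these rows are described below. They comprised 87053 of 437027 PSR rows (19.9%) and 33157 of 282044 JUC rows (11.8%), and every such row was kept, with no filter on brightness. The rows were chosen by the annotation alone, with no measured value. A row without a symbol is unnamed here, which does not mean that it lies outside a gene. Rows are therefore called by their array ID, and no gene is assigned to any of them.

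The study compared 12 arrays of laser-dissected intestinal mucosa from male C57BL6/J mice aged 4 to 6 weeks, none of which received a treatment. The 4 groups of 3 arrays were ileum mucosa of FSPCre-PPARB -/- mice, ileum mucosa of PPARB flox/flox littermates, colon mucosa of FSPCre-PPARB -/- mice and colon mucosa of PPARB flox/flox littermates, called knockout and floxed from here on, as labelled. One label field names tumors as the tissue source while the other fields name mucosa, and the values were read as mucosa. The labels do not say that the 3 arrays of a group came from separate mice, so the p-values cover only how far these samples vary among themselves, and part of that variation may be technical. FSP is the field's usual abbreviation for fibroblast-specific protein, whose promoter drives Cre mainly in stromal cells, so loss of the receptor gene is not expected in every cell of the mucosa.

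A PSR, or probe selection region, is a stretch of an exon measured by its own probes, and a JUC is a junction between a pair of exons measured by probes that lie across the splice. Arrays of this kind carry rows for many predicted exons and transcripts, some of which were given a gene name only later or never. The ileal lining absorbs bile acids, fat and vitamin B12 and holds Paneth cells at the base of its crypts, while the colonic lining absorbs water and salt, and many genes are used mainly in one of these epithelia. PPARB, gene symbol Ppard, is a nuclear receptor that binds fatty acids and controls genes of lipid use.

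The tissue labels were checked on rows that carry a symbol, taking the median of a gene's rows as its value. All 12 ileum marker genes had a higher mean in ileum than in colon, and the 6 ileum and 6 colon arrays did not overlap for 10 of them. The colon list had 8 of its 9 measured genes higher in colon, and 4 of them did not overlap. Fabp6, the ileal bile acid carrier, averaged 7.07 higher in ileum on the log2 scale, and Car1, a colonic carbonic anhydrase, differed by -6.64. All 8 epithelial markers lay above 5.852, the 95th percentile of the 5222 negative control rows, while all measured markers of B and plasma cells (3), T cells (4), macrophages (4) and exocrine pancreas (5) lay below it. So did 6 of the 12 ileum, 6 of the 9 colon and 3 of the 6 smooth muscle markers. A place below it therefore does not show that a cell type was absent. The means of the 6 smooth muscle markers spanned 5.55 to 7.05 over the ileum knockout arrays, 5.11 to 5.85 over the ileum floxed, 5.12 to 5.68 over the colon knockout and 4.97 to 5.55 over the colon floxed arrays. The 7 fibroblast markers spanned 4.91 to 5.5 over the ileum knockout, 4.7 to 4.94 over the ileum floxed, 4.96 to 5.35 over the colon knockout and 4.95 to 5.21 over the colon floxed arrays, and 4 of them lay below that percentile.

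One array stood apart. On the leading principal component of rows with a mean of at least 5 (34% of the variance), ileum knockout array 1 lay at -266.2, where the other arrays spanned -85.1 to 173.7. Colon floxed array 2 did not stand apart there but was low in several rows given below. The 340 calls between tissues described below were 262 without ileum knockout array 1 and 308 without colon floxed array 2.

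Ppard averaged 6.78 ± 0.17 in knockout and 6.39 ± 0.21 in floxed ileum, and 6.88 ± 0.43 in knockout and 6.74 ± 0.15 in floxed colon (log2, SD, n = 3 each), and none of its 23 rows was called between genotypes. The knockout means were thus not below the floxed means at the targeted gene, and no source used here places the rows inside or outside the deleted part. In bulk mucosa, fewer cells of a type and less RNA per cell cannot be told apart.

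Most rows without a symbol were dim. The row mean over the 12 arrays had a median of 2.9 on the log2 scale in PSR rows without a symbol, against 4.08 in PSR rows with one, and 3.28 against 3.83 in JUC rows. Row means of PSR rows without a symbol spanned 1.23 to 13.91. A row's brightness also depends on its probes, so these values describe rows and are no measure of how much RNA a row stands for.

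Using 5.852 as a floor for brightness, 7908 PSR rows without a symbol (9.08%) had a mean above it, against 18.9% of PSR rows with a symbol. Among JUC rows the shares were 18.4% without and 21.4% with a symbol. Row means under 3 made up 52.5% of PSR rows without a symbol and 30.5% of those with one. The classes were not tested against each other.

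**Figure D1:**
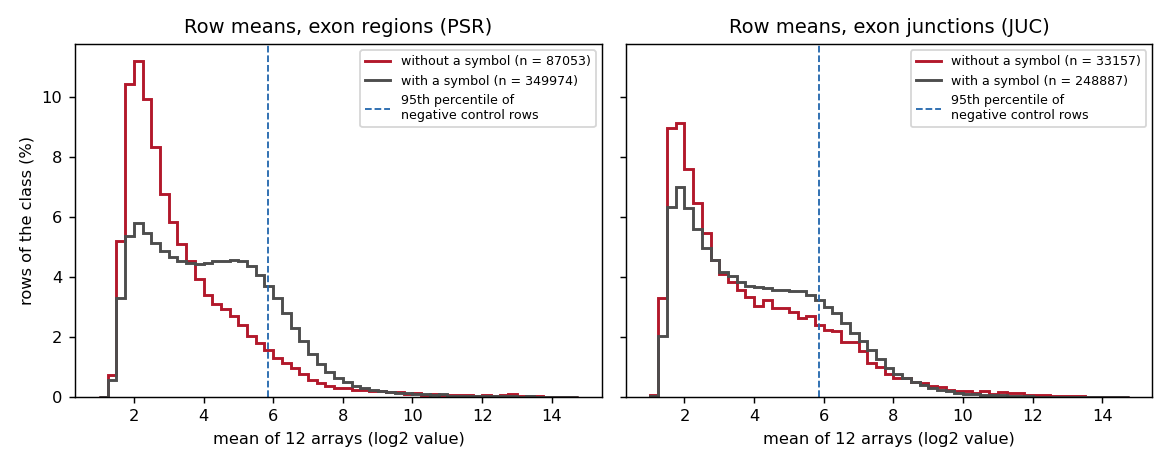
Share of rows (%) by their mean over 12 arrays (log2 value), for exon region rows (left) and junction rows (right), rows without a symbol in red and rows with a symbol in grey; the dashed line is the 95th percentile of negative control rows, 5.852. Rows without a symbol pile up at low values, with medians of 2.9 and 3.28 against 4.08 and 3.83.

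The brightest rows had nearly the same value on all arrays. PSR0400014271 and PSR0900019722, which had the same value on every array, read 13.75 or more on all 12 arrays, with a median of 13.94 in ileum and of 13.91 in colon. JUC1500004885 spanned 13.33 to 13.59 in ileum and 13.4 to 13.56 in colon. These rows sit near the top of the scale, where a difference may be compressed.

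The leading code of an ID matched the RefSeq chromosome of the row's gene for 99.9% of 551586 rows with a symbol (GRCm38.p6), so the code is given below as the likely chromosome. Between 12.2% (code 11) and 22.4% (code 13) of rows lacked a symbol on the numbered codes, with 31.6% on code Y and 47.5% on code M, the mitochondrial code. The 28 rows of code M without a symbol had a median row mean of 7.87, with 21 of them above the floor, and code M rows with a symbol had a median of 11.62. The 1327 rows of code Y without a symbol were dim, with medians of 2.44 for PSR and 2.32 for JUC rows. Code Y rows with a symbol were dim too, with a median of 2.41. No row of either code was called between ileum and colon averaged over genotypes, and the smallest adjusted p between ileum and colon (limma) was 0.53 for code M and 0.0797 for code Y.

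Between ileum and colon, 340 rows without a symbol passed the test, where 0.94% of all 719071 rows did. Some of them differed by more than several of the marker genes above, although those values are medians over a gene's rows. None reached the difference of 7.07 of Fabp6 or of -6.64 of Car1. Each row was tested with limma over the 4 groups, averaging the genotypes, and called at a Benjamini-Hochberg adjusted p under 0.05 over all 719071 rows. Of the PSR rows, 128 were higher in ileum (0.147%) and 73 were lower (0.0839%), where the background over all PSR rows, with or without a symbol, was 0.586% higher and 0.322% lower. Of the JUC rows, 74 were higher (0.223%) and 65 lower (0.196%), against a background of 0.601% and 0.388%. In both directions the share of rows without a symbol was below the background, a difference that was not tested. The median difference over all rows was -0.012 in PSR and 0.0 in JUC rows without a symbol, and -0.021 and -0.006 in those with one.

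Shares are also given by class of brightness, with no test between the classes of rows. Among rows with a mean of 7 or more, 1.1% of PSR rows without a symbol were called, against 3.23% of those with one, and 1.41% against 3.03% of JUC rows. In the class from 5 to under 7 the shares were 0.818% against 1.99% in PSR rows, and 0.746% against 1.64% in JUC rows. In the dimmest class, under 3, they were 0.024% against 0.0732% and 0.0796% against 0.168%. The median SD within groups was 0.27 in PSR rows without a symbol and 0.316 in those with one, and 0.497 and 0.516 in JUC rows. Among rows of 7 or more it was 0.291 without and 0.257 with a symbol in PSR rows, and 0.321 and 0.317 in JUC rows, and its part in the shares was not tested.

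**Figure D2:**
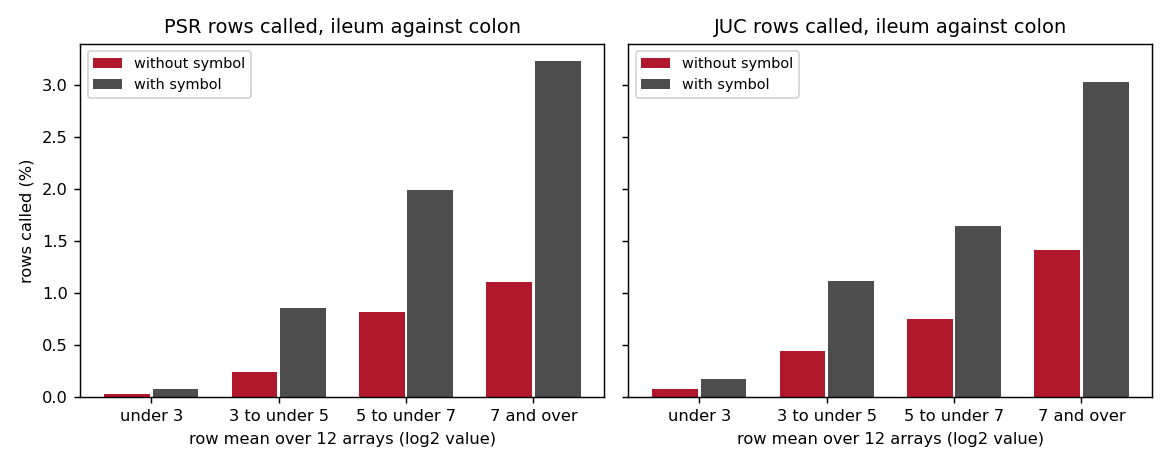
Percentage of PSR rows (left) and JUC rows (right) called between ileum and colon in 4 classes of row mean (log2 value), with rows without a symbol in red and rows with a symbol in grey. In each class the red bar is lower, for example 1.1% against 3.23% of PSR rows at 7 and over.

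Called differences were large. PSR rows higher in ileum had a median difference of 1.72 (range 0.74 to 6.23), and 53 of the 128 differed by 2 or more on the log2 scale. In 109 of the 128 the colon mean lay under the floor of 5.852, so folds for them may be understated. In 56 of the 128 the ileum mean lay under it too. PSR rows lower in ileum had a median difference of -1.54 (range -5.15 to -0.62), and 51 of 73 had an ileum mean under the floor. In 18 of the 73 the colon mean lay under it too. The JUC medians were 1.95 for rows higher and -1.36 for rows lower in ileum. Both tissue means lay under the floor in 31 of 74 JUC rows higher and 12 of 65 lower in ileum. All 6 ileum arrays lay above all 6 colon arrays in 109 called PSR and 58 called JUC rows. The ileum arrays lay below all colon arrays in 57 and 44. A call favours rows with such a gap. With or without a call, the tissues did not overlap in 0.561% of PSR and 0.576% of JUC rows without a symbol, against 1.19% of all rows.

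The row with the largest rise was PSR0900018553, on code 09. It read 10.87, 12.62 and 10.67 in knockout ileum and 11.41, 10.46 and 10.77 in floxed ileum. It read 4.74, 5.1 and 4.91 in knockout colon and 4.94, 5.04 and 4.67 in floxed colon. Every ileum array was more than 5 log2 units above every colon array. The difference was 6.23 (SE 0.31, 95% interval 5.57 to 6.9) on the log2 scale, with an adjusted p of 1.25e-06 (limma). All 6 colon values lay under the floor of 5.852, so no fold is given. It belonged to a block of 6 neighbouring rows without a symbol, of which 4 were called, all higher.

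Over the 12 arrays its values followed those of named ileal genes. Among 193672 rows with a symbol and a mean of at least 5, the most like it were a row of Naaladl1, a peptidase-like gene (Pearson r 0.9937), a row of Slc28a2, a nucleoside transporter (0.9937), and a row of Fabp6 (0.9933). These correlations rest mainly on the gap between the tissues. Within the 6 ileum arrays they were 0.87, 0.93 and 0.71, and within the 6 colon arrays 0.03, 0.22 and 0.91, and all values share the same hybridisations.

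JUC0900006425, also on code 09, was a block of its own and the steadiest of the strongly higher junction rows. It read 7.68, 8.3 and 7.92 in knockout ileum and 8.52, 7.52 and 7.87 in floxed ileum, against 2.08, 2.43 and 2.99 in knockout colon and 3.22, 3.02 and 1.68 in floxed colon. The groups did not overlap, and the difference was 5.4 (SE 0.29, adjusted p 2.31e-06, limma). PSR1900009249, with a difference of 3.25 (SE 0.18, adjusted p 3.51e-06, limma), spanned 7.42 to 8.61 in ileum (median 8.08) and 4.66 to 4.97 in colon (median 4.85).

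Several rows on code 08 rose in ileum with a wide spread. PSR0800001871 read 10.17, 6.13 and 8.28 in knockout ileum, 8.16, 6.15 and 7.54 in floxed ileum, 2.91, 1.93 and 2.42 in knockout colon, and 3.05, 2.77 and 2.41 in floxed colon. JUC0800001001 read 10.38, 5.57 and 7.4 in knockout ileum, 7.85, 3.52 and 6.72 in floxed ileum, 0.98, 1.23 and 1.55 in knockout colon, and 1.38, 1.71 and 1.54 in floxed colon. In both rows, ileum knockout array 1 was highest, and knockout array 2 and floxed array 2 were the lowest ileum arrays. JUC0800007940 had the same highest array, at 9.64, and spanned 5.57 to 9.64 in ileum, with a median of 7.03, against 1.97 to 3.48 in colon, with a median of 2.61.

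The differences between tissues were 5.15 (SE 0.57), 5.51 (SE 0.79) and 4.56 (SE 0.6), with adjusted p of 0.000558, 0.0044 and 0.00227 (limma). Without ileum knockout array 1 they were 4.66, 4.86 and 4.04 for PSR0800001871, JUC0800001001 and JUC0800007940, and all remained called. Lyz1, a lysozyme of Paneth cells, averaged 8.09 ± 1.43 in knockout and 6.69 ± 0.76 in floxed ileum, against 4.45 ± 0.38 in knockout and 4.65 ± 0.28 in floxed colon (SD, n = 3 each), and its part in these rows was not tested. A further row of code 08, PSR0800014591, spanned 8.93 to 11.22 in ileum (median 9.64) and 5.08 to 5.86 in colon (median 5.49), a difference of 4.31 (SE 0.32). The other named rows with a rise were PSR0X00010636, PSR1500000714, PSR0900023944, PSR0400021488 and JUC0X00005406, with differences between 3.29 and 4.99.

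The largest fall was in JUC0300004091, on code 03. It read 2.01, 2.02 and 3.03 in knockout ileum and 3.08, 2.92 and 2.42 in floxed ileum. It read 10.74, 9.75 and 9.84 in knockout colon and 10.02, 4.01 and 9.63 in floxed colon. Colon floxed array 2 stood far below the other 5 colon arrays, yet above all ileum arrays. The difference was -6.42 (SE 0.83, 95% interval -8.23 to -4.61, adjusted p 0.00192, limma), and -7.39 without that array (adjusted p 7.47e-07).

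An exon region row of the same code, PSR0300007935, had the same low array. It spanned 3.14 to 4.0 in ileum (median 3.38), and in colon read 10.11, 9.21 and 8.74 in knockout and 9.54, 4.77 and 9.1 in floxed mice, a difference of -5.15 (SE 0.66, adjusted p 0.00189, limma), and -5.91 without that array. PSR1900012850, with a difference of -4.6 (SE 0.35, adjusted p 3.2e-05, limma), was likewise lowest of the colon arrays in floxed array 2, at 6.93, where the others spanned 8.74 to 9.45. Among the rows with a symbol most like JUC0300004091 were a pair of rows of Cyp2c55, a cytochrome P450 (r 0.9864 and 0.986). Within the 6 colon arrays the correlations were 0.96 and 0.95, and within the 6 ileum arrays 0.2 and 0.44.

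Colon floxed array 2 was also the lowest colon array in PSR0X00016308, at 4.68, and in PSR0X00005584, at 6.89.

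In other falls the colon arrays lay closer together. PSR0600006581 read 7.67, 7.73 and 7.53 in knockout ileum, 8.03, 6.65 and 7.41 in floxed ileum, 10.14, 9.93 and 9.66 in knockout colon, and 10.05, 9.7 and 9.43 in floxed colon. All its values lay above the floor, and the difference was -2.32 (SE 0.22, adjusted p 0.000186, limma). PSR0700006438 spanned only 4.73 to 4.88 in ileum (median 4.81) and 6.84 to 8.21 in colon (median 7.34), a difference of -2.64 (SE 0.18, adjusted p 1.47e-05, limma). Of the remaining named falls, PSR0700015419, PSR0X00016308, PSR0X00005584, PSR0100019199, JUC0900003076 and JUC0600002730 differed by between -2.85 and -1.89, and JUC0600002730 lost its call when colon knockout array 2, colon knockout array 3 or ileum knockout array 1 was left out (adjusted p 0.0535, 0.0551 and 0.0503).

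**Figure D3:**
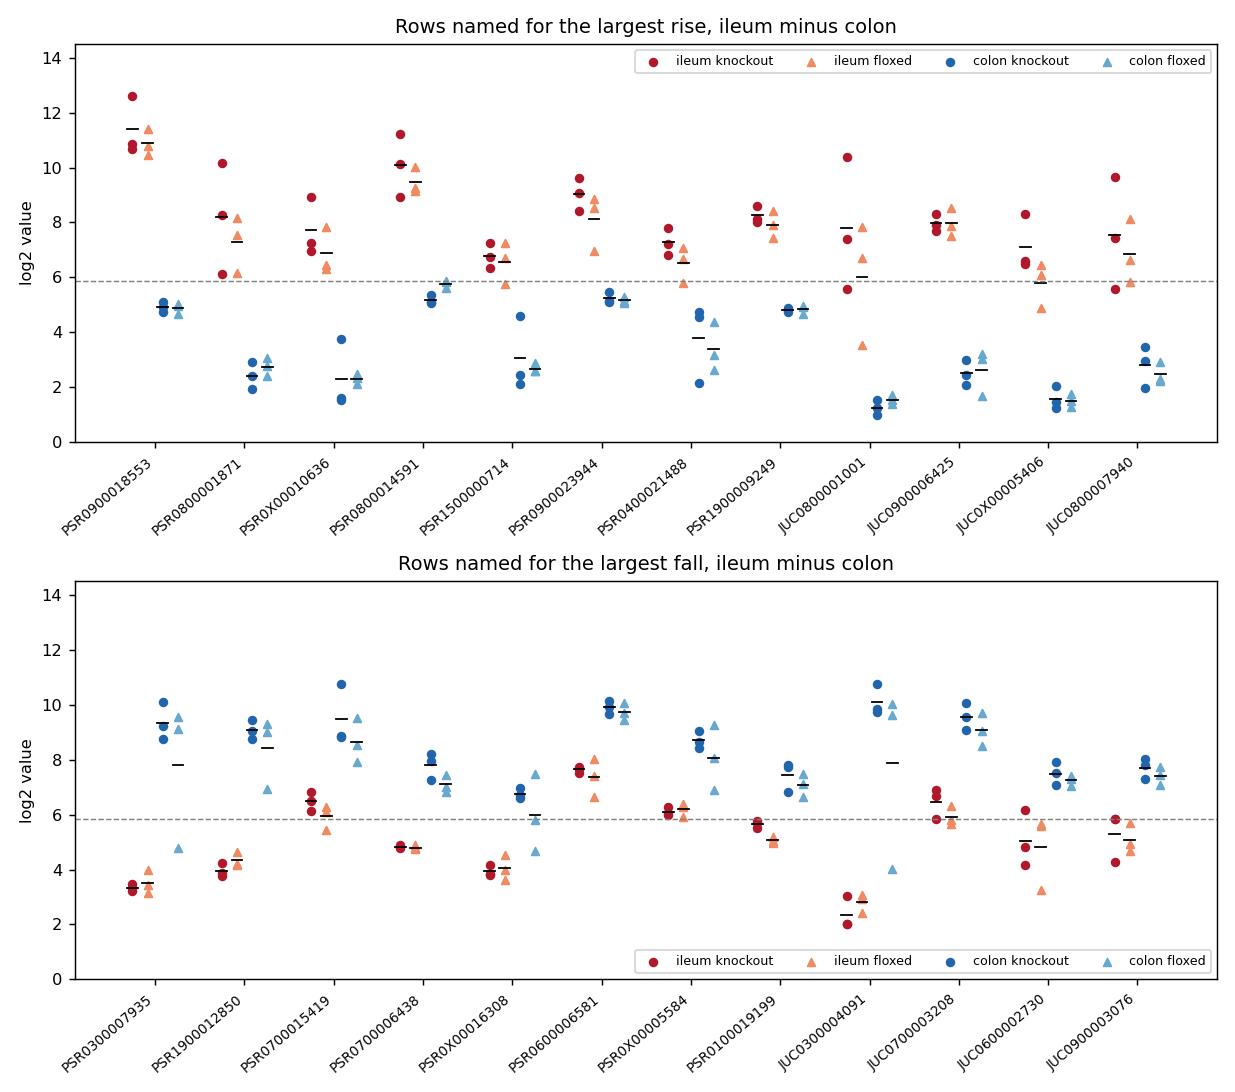
Log2 values of the 12 named rows with the largest rise (top) and the 12 with the largest fall (bottom), each point an array, ileum in red and orange left of colon in blue, circles for knockout and triangles for floxed; black bars are group means of 3 arrays and the dashed line is the negative control percentile, 5.852. In each row the ileum and colon arrays do not overlap, and colon floxed array 2 lies at 4.01 in JUC0300004091.

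Some of these rows are copies of each other in the table. Values identical on all 12 arrays to another row were found in 2065 PSR rows without a symbol (2.37%) and 1943 JUC rows (5.86%), and 643 and 988 of them matched a row that carries a symbol. Among called rows, 3 PSR and 4 JUC rows were such copies, leaving 200 and 137 distinct called profiles. JUC0700003208 (difference -3.12) had the same values as 9 other rows, 8 of them with a symbol, and PSR0700006438 as 1 row with a symbol. These values cannot be credited to one locus.

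Called rows lay close together in the ID order. A block is taken here as a stretch of consecutive rows of one type and code that all lack a symbol; the 87053 PSR rows formed 23236 blocks, 10944 of them a single row and the largest 134 rows. Only 105 PSR blocks held a call. The 30 blocks with 2 or more calls held 126 of the 201 called PSR rows (62.7%). All calls went the same way within each of these blocks, higher in 20 and lower in 10. Of the JUC blocks, 95 of 8214 held a call, and 13 held 2 or more, with 57 of the 139 calls (41.0%): 5 all higher, 5 all lower and 3 mixed. Blocks were drawn up with these values known and were not tested, and neighbouring rows may measure one transcript, so they are not independent. Copies with identical values, such as JUC0700003208 and JUC0700003212, were counted in the blocks as separate calls.

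The block with the most calls was on code X: 24 PSR rows, of which 19 were called, all higher in ileum. Its median over rows was 8.73, 6.87 and 7.0 in knockout ileum and 7.13, 5.51 and 7.25 in floxed ileum. The median was 3.75, 3.26 and 3.03 in knockout colon and 2.87, 3.09 and 3.14 in floxed colon. All ileum arrays lay above all colon arrays, with ileum knockout array 1 highest and ileum floxed array 2 lowest among the ileum arrays. The row differences had a median of 3.37, from 0.2 to 4.99, and all 24 were positive; without ileum knockout array 1 the median was 3.12.

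A block of 18 JUC rows on code X had 16 calls, all higher, with a median difference of 3.8. Its array medians followed the same order at the ends, with 8.96 in ileum knockout array 1, the highest, and 5.63 in ileum floxed array 2, the lowest ileum array, against 2.97 to 4.14 in colon. PSR and JUC rows are numbered separately, so the files do not show whether these blocks cover the same place. With these blocks, code X had the highest share of rows called among the codes, 42 of 4735 (0.887%), against 0.595% of all rows of that code.

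On code 03, a block of 17 PSR rows had 10 calls and a block of 12 JUC rows had 7, all lower in ileum. The PSR block's medians were 3.31, 3.74 and 3.53 in knockout ileum and 3.32, 3.24 and 3.85 in floxed ileum, against 8.55, 7.68 and 7.44 in knockout colon and 7.79, 3.49 and 7.44 in floxed colon. Colon floxed array 2 lay within the range of the ileum arrays, so the tissues overlapped in it, and the other 5 colon arrays lay well above. The median difference was -3.08, and -3.63 without that array. The JUC block had a median of 4.43 in the same array, against 6.85 to 8.21 in the other colon arrays and 3.66 to 4.71 in ileum.

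On code 01, 11 of 20 PSR rows of a block were lower in ileum, with array medians of 5.82, 5.47 and 5.66 in knockout ileum, 5.48, 5.16 and 5.37 in floxed ileum, 6.75, 6.75 and 6.57 in knockout colon, and 6.74, 6.36 and 6.78 in floxed colon. The groups did not overlap, although the median difference was only -1.06. On code 09, a block of 5 PSR rows was called throughout, all higher, with medians of 9.29, 8.64 and 8.85 in knockout ileum, 8.44, 7.85 and 8.88 in floxed ileum, 5.76, 6.57 and 6.3 in knockout colon, and 5.69, 6.48 and 5.16 in floxed colon.

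Code 04 held a block of 16 PSR rows with 7 higher (median difference 1.35, all 16 positive) and a block of 9 JUC rows with 5 higher (2.39). In longer blocks the calls were fewer: 8 of 38 PSR rows on code 15 and 7 of 50 on code 01, all higher, with block medians of 0.43 and 0.51.

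**Figure D4:**
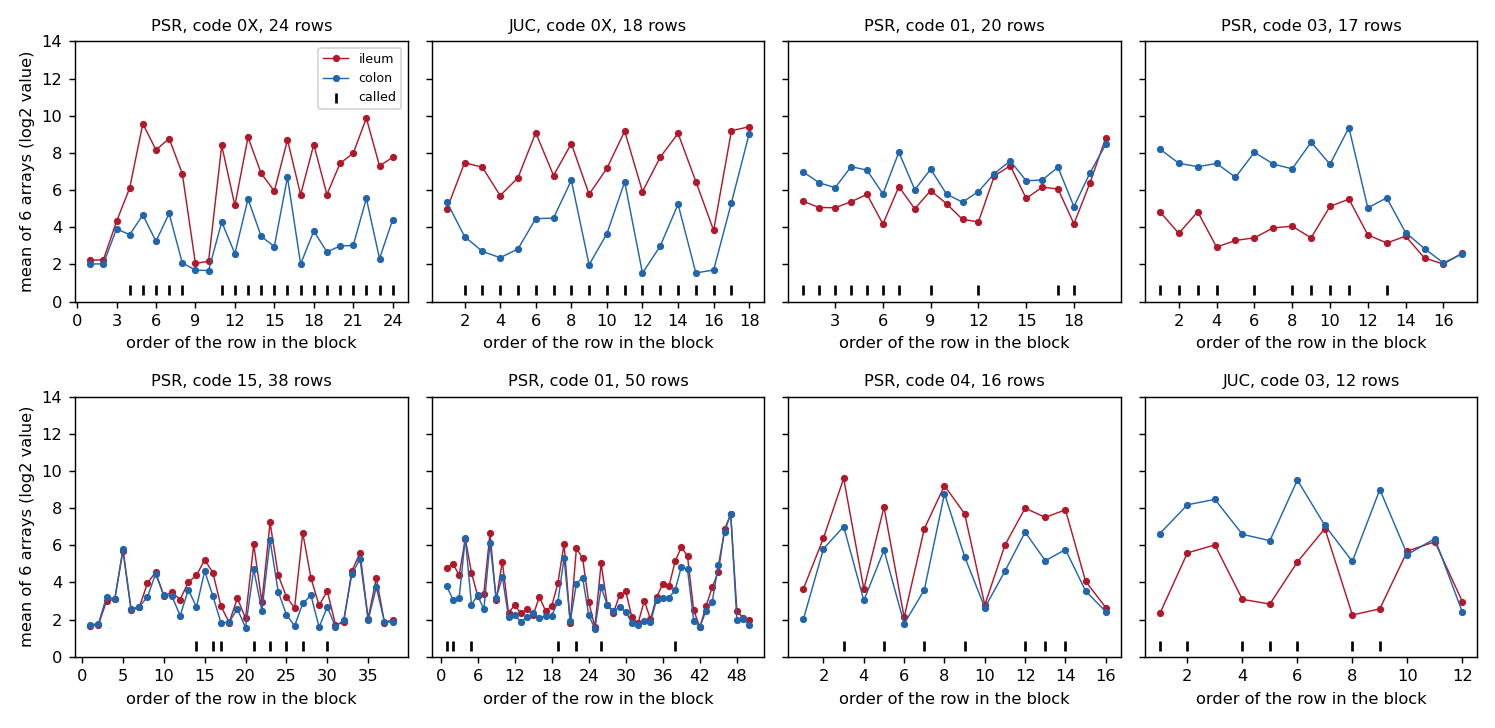
Mean log2 value of the 6 ileum arrays (red) and the 6 colon arrays (blue) for each row, in ID order, of the 8 blocks with the most calls; black ticks mark called rows. On code X the ileum line runs above the colon line for all 24 PSR rows, and in the PSR block of code 03 the lines come together over the last 4 rows.

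Blocks flanked on both sides by rows of the same symbol held 9593 PSR rows without a symbol (11.0%), with a median row mean of 2.64, against 3.87 for their flanking rows. Of these, 7 were called (0.073%), against 0.231% of all PSR rows without a symbol, which were brighter (median 2.9). The sign was that of the flanking rows' mean difference in 6 of the 7, and 3 had a called flanking row of the same direction. Of 393 JUC rows so placed, 1 was called, with the opposite sign. Over the 861 such rows with a mean of at least 5, the difference between tissues and that of the flanking rows correlated at r 0.281 (Spearman 0.172), and over 89 such JUC rows at 0.05 (Spearman 0.062), as a description over rows that share the 12 arrays.

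The tissue difference was also seen in each genotype, in arrays that the genotypes do not share. Both tests came from a single fit, however, with the spread of a row estimated over the arrays of all groups. A row with a small spread was thus favoured in both genotypes, and the lists are not independent. In knockout mice, 81 PSR rows (0.093%) and 59 JUC rows (0.178%) without a symbol were called, where the background was 0.363% of all PSR and 0.408% of all JUC rows. In floxed mice, 54 PSR rows (0.062%) and 44 JUC rows (0.133%) were called, against a background of 0.261% and 0.323%. Both genotypes called 47 PSR rows, which is 58.0% of the knockout and 87.0% of the floxed list, and 32 JUC rows (54.2% and 72.7%). All of these went the same way in both.

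The knockout count depended on single arrays. It was 140 with all arrays and 84, 66 and 77 without colon knockout array 1, 2 or 3, and 82 and 87 without ileum knockout array 1 or 3. The floxed count was 98, and 63, 43 and 45 without colon floxed array 1, ileum floxed array 1 or ileum floxed array 3. It also moved with knockout arrays, which enter it only through the shared spread. It was 84, 76 and 82 without colon knockout array 1, 2 or 3, and 109, 88 and 99 without ileum knockout array 1, 2 or 3. The averaged count was 225 without colon knockout array 2, against 340 with it. PSR rows lower in ileum, 73 in all, numbered 43 without colon knockout array 2, 47 without colon floxed array 1, and 46 to 48 without ileum floxed array 1 or 3 or ileum knockout array 2 or 3; JUC rows lower in ileum numbered 37 without colon knockout array 2, against 65.

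No interaction of genotype and tissue passed the test for any row. The smallest adjusted p was 1 (limma), and the background of calls was 0%. An unadjusted p under 0.05 (limma) was found in 1817 PSR and 1964 JUC rows without a symbol (2.09% and 5.92%). The shares of PSR and JUC rows with a symbol were near these, at 2.55% and 5.68%. Whether the tissue difference depends on genotype was thus not detectable for single rows with 3 arrays a group.

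Between knockout and floxed mice, no row without a symbol was called in ileum, in colon or over both tissues, and no row with a symbol was either, so the background was 0% in each. The smallest adjusted p over all rows was 0.684 in ileum, 0.929 in colon and 0.524 over both tissues (limma). At an unadjusted p under 0.05 there were 3532 PSR and 2760 JUC rows in ileum (4.06% and 8.32%), 2402 and 2184 in colon (2.76% and 6.59%), and 4285 and 2966 over both tissues (4.92% and 8.95%). The shares of PSR and JUC rows with a symbol were 6.56% and 9.31% in ileum, 3.97% and 7.0% in colon, and 9.18% and 11.0% over both tissues. The 3 knockout and 3 floxed arrays did not overlap in 11.2% of PSR rows without a symbol in ileum and 10.3% in colon, near the 12.5% and 10.4% of all rows.

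The rows leaned slightly low in knockout mice. Over both tissues the median difference was -0.067 in PSR and -0.074 in JUC rows without a symbol, against -0.028 and -0.015 in rows with one. The difference was positive in 34.4% of PSR rows without a symbol and 45.5% of those with one, and in 40.4% and 48.3% of JUC rows. The medians stayed negative after quantile normalisation of all rows, at -0.054 in PSR and -0.069 in JUC rows without a symbol. By brightness, the median in PSR rows without a symbol was -0.067 under 3, -0.073 from 3, -0.067 from 5 and -0.028 from 7, against -0.043, -0.007, -0.02 and -0.103 in PSR rows with a symbol.

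The array medians overlapped between genotypes. PSR rows without a symbol had a median of 2.793, 2.948 and 2.914 on the knockout and 2.902, 3.011 and 2.929 on the floxed ileum arrays. The colon medians were 2.826, 2.879 and 2.948 in knockout and 2.889, 3.024 and 2.976 in floxed mice. Control rows for array background, taken at a G plus C content of 15 to 25 bases, separated the genotypes in ileum but not in colon. Their mean was 6.005, 6.303 and 6.379 in knockout and 6.602, 7.061 and 6.599 in floxed ileum, without overlap, and 6.316, 6.48 and 6.758 in knockout and 6.605, 6.836 and 6.972 in floxed colon, with overlap. The array medians of the negative control rows overlapped between genotypes in both tissues. They spanned 2.458 to 2.637 in knockout and 2.538 to 2.581 in floxed ileum. In colon they spanned 2.463 to 2.561 in knockout and 2.548 to 2.714 in floxed mice. The part of either set of control rows in the lean of the rows was not tested.

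**Figure D5:**
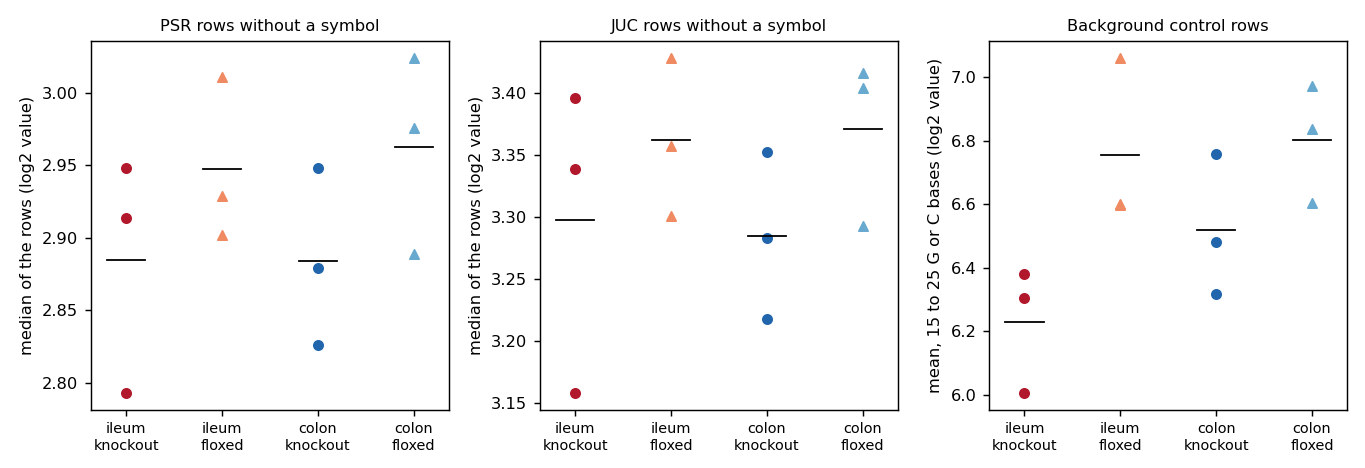
Median log2 value of PSR rows (left) and JUC rows (middle) without a symbol, and mean log2 value of the control rows for array background (right), one point per array; bars are means of 3 arrays and the vertical axes do not start at 0. Knockout and floxed arrays overlap in the medians of PSR and JUC rows, and in ileum the control rows span 6.005 to 6.379 in knockout and 6.599 to 7.061 in floxed mice.

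The PSR rows with the smallest p whose groups did not overlap all failed the correction. In ileum, PSR1100022868 read 2.97, 2.79 and 3.16 in knockout and 1.82, 1.91 and 1.9 in floxed mice (difference 1.09, adjusted p 0.684, limma), and PSR0400025991 read 1.29, 1.06 and 1.3 in knockout and 2.83, 2.37 and 2.16 in floxed mice (difference -1.24, the same adjusted p). All of these values lay under the floor, and the groups did not overlap in either row.

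In colon, PSR0200020080 read 6.15, 5.97 and 5.71 in knockout and 3.82, 4.93 and 3.0 in floxed mice, a difference of 2.02 (SE 0.39, adjusted p 0.929, limma). Its ileum values went the other way, at 5.35, 5.14 and 5.04 in knockout and 5.6, 5.19 and 5.93 in floxed mice, with an adjusted interaction p of 1. PSR1000015150 had the smallest unadjusted p in colon among the rows named there, 1.15e-05 (limma). It read 2.18, 2.07 and 2.29 in knockout and 3.68, 3.44 and 3.59 in floxed mice (difference -1.39). All its values, in ileum too, lay under the floor. That row was called between the tissues, lower in ileum by a difference of -0.96 (adjusted p 0.00412, limma), with a floxed difference of -1.58 (adjusted p 0.00381) and a knockout difference of -0.34 (adjusted p 0.857); the adjusted p of its interaction was 1.

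Over both tissues, PSR0100001964 read 3.57, 3.96 and 4.18 in knockout ileum and 3.4, 3.25 and 3.32 in floxed ileum, and 4.33, 4.19 and 4.42 in knockout colon and 3.16, 3.15 and 3.47 in floxed colon. All 6 knockout arrays lay above all 6 floxed arrays, with a difference of 0.81 (SE 0.15, adjusted p 0.524, limma). PSR0100011495 went the other way, with a difference of -1.0 (SE 0.17, adjusted p 0.524, limma), and read 1.72, 2.2 and 1.78 in knockout ileum, 3.28, 3.14 and 2.95 in floxed ileum, 2.29, 2.81 and 2.54 in knockout colon, and 2.99, 3.68 and 3.29 in floxed colon. All 6 knockout arrays lay below all 6 floxed arrays, which was the case in 306 PSR rows without a symbol, while 46 lay above. Among PSR rows with a symbol, 1057 lay below and 490 above. The groups did not overlap in 0.404% of PSR rows without a symbol, near the 0.442% of PSR rows with a symbol and the 0.398% of all rows. Every value of PSR0100001964 and PSR0100011495 lay under the floor of 5.852.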

How the data were processed

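RNA of laser-dissected ileum and colon mucosa was labelled and hybridised to mouse exon and junction arrays. The deposited table holds log2 values made by the authors with RMA in Partek, per the submitters' processing notes; the versions, background model and probe files are not given in the sources used here. No detection call was used, and row sequences and positions were not used here. The values were taken as deposited. limma 3.58.1 in R 4.3.3 fitted a mean for each of the 4 groups (8 residual and 3.895 prior degrees of freedom), two-sided, with Benjamini-Hochberg adjustment over all 719071 PSR and JUC rows at 0.05. The number of arrays limits the precision. The fit was tested on simulated data.

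Rows named between the tissues were called, non-overlapping and largest in difference, 8 PSR and 4 JUC rows each way, at most 1 within 50 ID numbers; between genotypes, they were the 3 PSR rows each way of smallest p whose groups did not overlap. Likeness was the Pearson correlation over 12 arrays. The rows and lists were chosen with earlier results of these data known. Alternatives were a filter on dim rows, quantile normalisation, trend and robust variance, a replicate block, separate fits of PSR and JUC rows, a minimum difference of 1, quartile classes, and leaving out each array. Marker genes with no row of a single symbol were left out. Tables and plots used Python 3.11.15, pandas 2.3.3, numpy 2.4.6 and matplotlib 3.10.9.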

Additional observations from a re-analysis of the deposited data

How the results depend on the processing

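The count of rows without a symbol called between ileum and colon, 340, ranged from 276 (minimum difference of 1) to 440 (dim rows left out), and leaving out 1 array gave 225 to 377. Leaving out dim rows kept 16520 of the 120210 rows without a symbol, and 162782 of all 719071 rows. It gave 114 PSR rows lower in ileum (73 in the full table), 217 calls in knockout mice (140) and 159 in floxed mice (98). These counts and the 440 thus come from fewer rows, with the adjustment made over fewer rows, and are not shares of the full table. Fitting PSR and JUC rows separately gave 115 PSR rows and 43 JUC rows lower in ileum (65 JUC rows when fitted together). It gave 192 PSR rows and 58 JUC rows higher in ileum (128 and 74 when fitted together). With 1 array left out, PSR rows numbered 87 to 166 higher and 43 to 77 lower in ileum, JUC rows 52 to 92 higher and 37 to 56 lower, and calls 66 to 163 in knockout and 43 to 109 in floxed mice. No genotype difference and no interaction was called under any alternative. With quartiles of brightness as class limits, 1.01% of the brightest rows without a symbol were called, against 2.3% of those with one. Among rows at 7 or more, the shares were 1.24% without and 3.13% with a symbol. The named rows between tissues kept direction and call in 405 refits and lost the call, without reversal, in 3, all of JUC0600002730; the filter on dim rows left 25 of 48 named results testable.

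With the replicate number as a block, 385 rows were called between tissues, 156 in knockout and 117 in floxed mice, and the block changed the call of no named row. Deviations of same-numbered arrays correlated at -0.112 to 0.354 (9 of 18 pairs over 0.1), against -0.332 to 0.257 for arrays of different numbers (8 of 36 over 0.1). The pairs of replicate 1 lay at 0.136 to 0.354. The pairs of replicates 2 and 3 lay at -0.112 to 0.188, so the numbers were not taken to pair the samples.

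Row means lay above the negative control percentile of 5.852 in only 9.08% of PSR and 18.4% of JUC rows without a symbol.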
